A study of Mus musculus with 9 samples.

Results

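The comparison described here set mouse T cells whose CD69 had been cross-linked with antibodies against T cells of the same culture type left without those antibodies. Its members are 6 of the 9 arrays of the series: the 3 titled as CD69-activated CD4 T cells and the 3 titled as wild-type B6 CD4 T cells. All probe sets that the array annotation gives exactly 1 gene symbol entered, 21789 of 35556, and for 19939 genes the brightest probe set stood for the gene. The 3 arrays of CD69-/- cells were left out of the contrast. They served to estimate the spread between replicates. They also counted in the mean level by which probe sets were ranked, and entered the alternative scalings.

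Both groups were wild-type C57BL/6J (B6) cells, enriched for CD4 T cells from spleen and grown for 72 h with beads that carry anti-CD3 and anti-CD28, at 10 cells per bead. The CD69-activated group received antibody to CD69 at 24 h and, at 48 h, a secondary antibody that cross-links it, each diluted 200-fold. The untreated group received neither, so stimulation through the T cell receptor and CD28 was common to both. The labels give no age or sex, do not say whether each biological replicate was its own mouse, and mention neither an isotype control nor cells given the secondary antibody by itself. The p-values therefore measure the spread between these cultures, and ligation of CD69 and exposure to antibody cannot be told apart.

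CD69 is a transmembrane C-type lectin-like receptor, among the earliest to reach the lymphocyte surface after stimulation. It binds the egress receptor S1P1 and removes it from the surface, which holds activated cells in lymphoid tissue. Other ligands and partners reported for it include galectin-1, the S100A8 and S100A9 pair, myosin light chains 9 and 12, and the amino acid transporter of SLC7A5 and SLC3A2. Stimulated CD4 T cells enlarge, make ribosomes and lipids, divide, and take on helper or regulatory programmes that differ in their cytokines.

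Values are log2 expression values from 1-colour Affymetrix arrays, and a difference of 1 is a 2-fold change. Correlations across probe sets were 0.996 to 0.997 between wild-type arrays, 0.996 between activated arrays and 0.988 to 0.994 across the groups, with wild-type replicate 3 the nearest to each activated array. Median values over the probe sets with 1 symbol lay between 7.73 and 7.76. Over every probe set of the table they lay between 7.43 and 7.48 in wild type and between 7.52 and 7.56 in activated arrays. In 2.91% of the probe sets the 3 wild-type arrays held the same value to 4 decimals, against 1.03% in activated arrays, so the replicate spread of such a gene is not measured by its own arrays. The number of arrays limits the precision.

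The labelled cell type was checked against marker genes. Cd4 read 12.01, 12.02 and 11.92 in the wild-type arrays and 12.09, 12.08 and 12.02 in the activated arrays. Genes of other cells were bright as well, in both groups. Cd79b, a chain of the B cell receptor complex, read 13.62, 13.62 and 13.60 in wild type and 13.53, 13.54 and 13.55 after cross-linking, and the CD8 chain gene Cd8a read 11.30, 11.27 and 11.21 against 10.79, 10.80 and 10.59. The enriched cultures thus held B cell and CD8 T cell transcripts in every array. In such bulk samples fewer cells of a type and less RNA per cell cannot be told apart.

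Cross-linking was followed by more and larger falls than rises. An adjusted p under 0.05 counts as a call here, and 4742 of the 19939 genes (23.8%) were called. Of all genes 10.1% were called higher and 13.7% lower. Called or not, every activated array lay above every wild-type array in 18.1% of genes and below in 17.8%. Falls of at least 1.5-fold numbered 260 (1.3%) and rises of that size 56 (0.281%), and falls of at least 2-fold numbered 55 (0.276%) against 13 rises (0.0652%). The balance of small changes depended on scaling. Of the 5285 probe sets called, 2274 were higher (10.4% of those tested) and 3011 lower, whereas centring the arrays on the median of the whole table, chosen after seeing the data, gave 898 higher and 5195 lower. Testing all probe sets of the table gave 3855 higher and 3367 lower. Small rises named below that were lost with centring on the whole table are given with their adjusted p under it. Several genes given below as not passing were called lower with that centring. They include Slc3a2, Il17a, Bcl2, Psmb9, Psmb10, Per2, Elane and Ly6g (adjusted p 0.00884 to 0.0432).

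Cd69 itself fell slightly. Its levels were 12.03, 12.12 and 12.37 in wild type and 11.80, 11.84 and 11.74 in activated arrays. The groups did not overlap, with a log2 fold change of -0.38 (SE 0.079, adjusted p = 0.00566), which is 1.3-fold.

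The ligands and partners of CD69 changed little or fell. Of 16 measured members 6 were called lower (37.5%, against 13.7% of all genes) and 10 did not pass. Their median log2 fold change was -0.06 against 0.02 over all genes. Slc7a5, the catalytic chain of the amino acid transporter, read 12.26, 12.20 and 12.11 in wild type and 11.54, 11.68 and 11.72 after cross-linking, a fall of 0.55 (SE 0.054, adjusted p = 5.25e-05). Its partner chain Slc3a2 had a log2 fold change of -0.10 and did not pass (adjusted p = 0.0698). Lgals1, which encodes galectin-1, fell by 0.39 and the cytokine signalling factor Stat5a by 0.27. Tgfb1 was at -0.14 and was no longer called without wild-type replicate 2 (adjusted p = 0.0608). Prdm1, which encodes the repressor BLIMP-1, was at -0.16 and lost its call in 10 of the alternatives tried, with adjusted p up to 0.136. S1pr1, the gene of the egress receptor, read 11.94, 11.97 and 11.92 in wild type and 11.97, 12.07 and 12.01 after cross-linking (adjusted p = 0.277). Its transcript says nothing of the protein at the surface, on which CD69 acts. Of the 21 egress and homing genes 1 rose and 1 fell (4.76% each, against 10.1% and 13.7% of all genes). The integrin chain Itga4 was at 0.17, a call lost with centring on the whole table (adjusted p = 0.148), and Klf2, the factor that drives S1pr1, fell by 0.20.

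**Figure D1:**
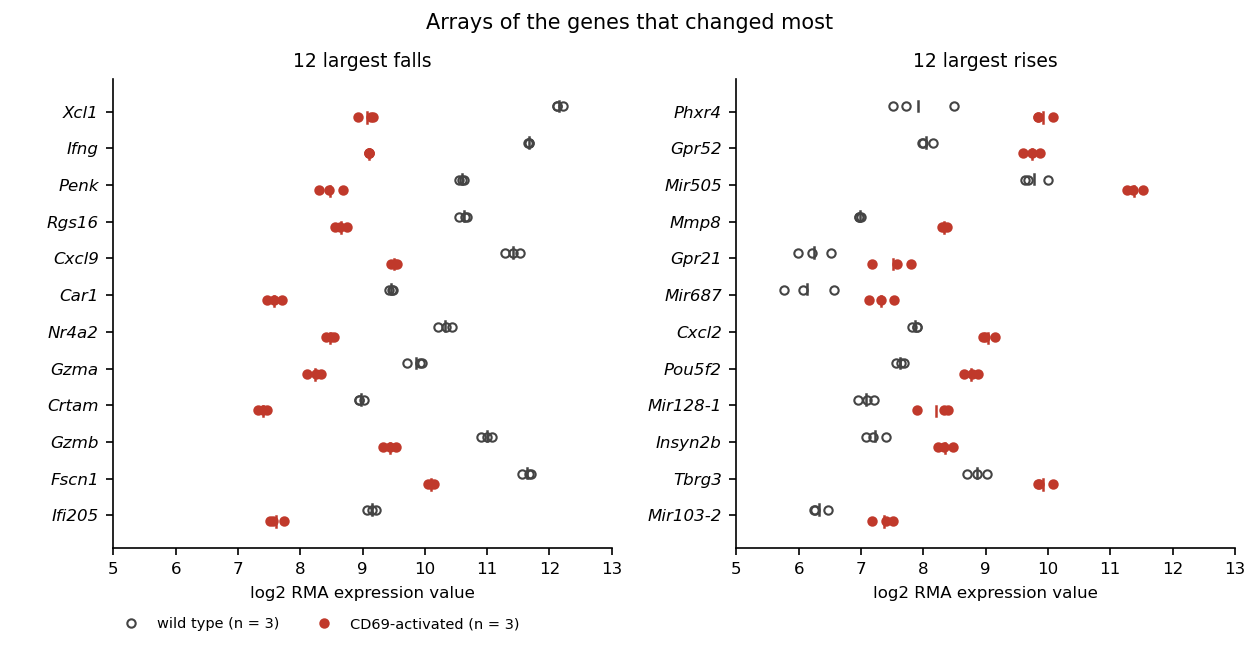
Log2 expression values of the 12 genes that fell most (left) and the 12 that rose most (right), by gene. Open circles are the 3 wild-type arrays, filled circles the 3 CD69-activated arrays and ticks the group means. Xcl1 lies near 12 in wild type and near 9 after cross-linking. Only genes whose groups do not overlap were eligible for the figure.

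Cytokine genes were among the largest falls. Ifng, which encodes interferon gamma, the signature cytokine of Th1 cells, read 11.67, 11.68 and 11.66 in wild type and 9.11, 9.10 and 9.10 in activated arrays. The replicates of each group nearly coincided and the groups were 5.92-fold apart (log2 fold change -2.57, SE 0.045, adjusted p = 4.4e-10). Il21, a helper cytokine that acts on B cells, went from 8.48, 8.50 and 8.48 to 6.74, 7.18 and 7.13 (-1.46, SE 0.096, adjusted p = 3.37e-06). Il2, the growth factor of T cells, went from 8.23, 8.31 and 8.10 to 7.34, 7.11 and 7.11 (-1.03, SE 0.078, adjusted p = 9.38e-06). None of these overlapped between groups.

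Over the whole list of 26 T cell cytokines 16 fell and 1 rose, and the median was -0.33. Penk, which encodes proenkephalin, fell by 2.11, Il9 by 1.09, Csf2 (GM-CSF) by 0.62 and Tnf by 0.52. Il10, an inhibitory cytokine, fell by 0.54, so cytokines of opposite action fell. The exception was Il17f, which rose by 0.20 (SE 0.038, adjusted p = 0.00294) from 7.18, 7.19 and 7.20 to 7.44, 7.42 and 7.33. Il17a was at -0.07 (adjusted p = 0.191) and Il4 at -0.09 (adjusted p = 0.45), and neither passed.

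Most chemokine genes that changed fell. Xcl1, the ligand of XCR1 on cross-presenting dendritic cells, fell from 12.12, 12.12 and 12.21 to 8.93, 9.13 and 9.17, an 8.44-fold difference (-3.08, SE 0.058, adjusted p = 4.96e-10). It was the largest change among genes in either direction. Of 20 XC, CC and CX3C chemokines 9 fell (45.0%, against 13.7% of all genes) and 1 rose (5.0%, against 10.1%). Ccl22 and Ccl17, which attract CCR4-bearing cells, fell by 1.43 and 0.84. Among 14 CXC chemokines 6 fell (42.9%) and 2 rose (14.3%). Cxcl9 and Cxcl10, interferon-inducible ligands of CXCR3, fell by 1.90 and 1.12.

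In the opposite direction, Cxcl2, which attracts neutrophils, rose from 7.90, 7.90 and 7.82 to 8.95, 9.15 and 8.99 (1.16, SE 0.055, adjusted p = 3.21e-07). Cxcl3, of the same group, was at 0.39, but its call was lost whichever array was left out (adjusted p 0.0645 to 0.13) and with centring on the whole table (0.0857). The receptors Ccr8 and Ccr4 fell by 0.73 and 0.67, while Cxcr3 was at 0.12 and did not pass.

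Genes of the lytic granule that changed mostly fell. Of 26 measured, 15 fell, 1 rose and 10 did not pass, with a median of -0.21. Gzmb, the granzyme that starts caspase cleavage in target cells, read 10.90, 11.08 and 10.99 in wild type and 9.33, 9.53 and 9.45 after cross-linking (-1.56, SE 0.061, adjusted p = 9.54e-08). Nkg7, a granule membrane protein, read 12.26, 12.26 and 12.25 against 11.05, 11.03 and 10.96 (-1.24). Gzma fell by 1.63, the adhesion receptor Crtam by 1.57, the perforin gene Prf1 by 0.80 and the granzyme B inhibitor Serpinb9 by 0.68. Gzmk moved the other way, from 8.51, 8.60 and 8.38 to 9.0, 8.93 and 8.92 (0.45, SE 0.055, adjusted p = 0.000195). Gzmk was thus the granzyme that ran against the others named.

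Markers of cells other than CD4 T cells that carry these granules moved beside them. Of 11 NK cell markers 7 fell, with a median of -0.35, and the list's median level was 8.25 in each wild-type array and 7.63, 7.78 and 7.46 in the activated arrays. Ncr1, an activating receptor of NK cells, fell by 0.92 and Klrk1 (NKG2D) by 0.73, whereas Klrd1 was at -0.06 and did not pass. Gzma, Prf1 and Eomes stand in both lists. Cd8a fell by 0.54 and Cd8b1 by 0.25. Their part in the fall of the granule genes was not tested.

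Regulators of helper lineages changed less than the cytokines. Eomes, a T-box factor of cytotoxic and memory cells, fell from 10.10, 10.13 and 10.07 to 9.0, 9.05 and 9.10 (-1.06, adjusted p = 5.68e-08). Tbx21, which encodes T-bet, the master factor of Th1 cells, fell from 10.99, 10.99 and 10.98 to 10.69, 10.70 and 10.64 (-0.31, adjusted p = 0.000113). Il12rb2, a chain of the IL-12 receptor, fell by 0.40. Both chains of the interferon gamma receptor missed the threshold, with Ifngr1 at 0.02 and Ifngr2 at -0.02. In all 5 of 15 Th1 regulators and receptors fell.

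Of 15 Th2 and Th9 regulators 8 fell, among them Gata3, the master factor of Th2 cells, by 0.33 and Irf4 by 0.44. In the Th17 list 3 of 13 rose (23.1%, against 10.1% of all genes) and 1 fell (7.69%, against 13.7%). Its median of 0.05 became -0.04 with centring on the whole table. Il6ra and Il6st, the 2 chains of the IL-6 receptor, rose by 0.26 and 0.31, and Tgfb3 rose from 9.97 in each wild-type array to 10.36, 10.45 and 10.50 (0.46, SE 0.064, adjusted p = 0.000469). IL-6 and TGF-beta are signals that start Th17 differentiation. Of the cytokine genes themselves, Il6 fell by 0.32 (adjusted p = 0.000952) and Tgfb1, as given above, was at -0.14.

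Foxp3, the master factor of regulatory T cells, read 9.67, 9.73 and 9.69 in wild type and 9.58, 9.66 and 9.71 after cross-linking (adjusted p = 0.445). The arrays of the groups overlapped. Of 20 regulatory T cell genes 8 fell and 1 rose, and the 8 include activation-induced receptors such as Tnfrsf9 (4-1BB), at -0.95, and Il2ra, the IL-2 receptor alpha chain, at -0.76. The gene that rose was Ctla4, an inhibitory receptor, from 11.03, 11.07 and 11.03 to 11.36, 11.41 and 11.25 (0.30, SE 0.046, adjusted p = 0.000893). Ctla4 also belongs to the list of 21 inhibitory receptors and ligands, of which 9 fell and 2 were called higher, Ctla4 and Lair1. Lair1, at 0.17, lost its call when any one array other than wild-type replicate 3 was left out (adjusted p 0.0661 to 0.138) and with centring on the whole table (0.243). Havcr2 (TIM-3) fell by 1.23, Cd160 by 0.94, Lag3 by 0.62 and Tigit by 0.32, while the PD-1 gene Pdcd1 was at -0.06 and did not pass.

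Ligands and receptors of the TNF superfamily, which carry costimulation between lymphocytes, fell in part. Of 15 ligands 9 fell (60.0%, against 13.7% of all genes) and 2 rose (13.3%, against 10.1%), with a median of -0.30. Of 21 receptors 6 fell (28.6%) and 1 rose (4.76%). Among ligands the largest falls were those of Tnfsf14 (LIGHT), at -0.60, Tnfsf9 (the 4-1BB ligand), at -0.59, and Tnfsf11 (RANKL), at -0.55. Among receptors Tnfrsf8 (CD30) fell by 0.83 and Cd40, a receptor of B cells and antigen-presenting cells, by 0.46. Tnfrsf18 (GITR) and Cd27, at 0.04 each, did not pass.

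The T cell receptor machinery moved in both directions. Of 35 genes of the receptor complex and its proximal signalling 7 rose (20.0%, against 10.1% of all genes) and 6 fell (17.1%, against 13.7%). Their median was 0.05, and 3 rose and 9 fell with centring on the whole table. Without wild-type replicate 3 the number that rose was 4. Themis, an adaptor of developing and mature T cells, rose from 10.06, 10.12 and 10.03 to 10.43, 10.49 and 10.42 (0.37, SE 0.039, adjusted p = 7.92e-05), and Plcg1, the phospholipase that relays the signal to calcium, rose by 0.31. Trat1, which stabilises the receptor complex, fell by 0.52 and the adaptor Lcp2 (SLP-76) by 0.31. Cd3e was at -0.13, and that call was lost without wild-type replicate 1 (adjusted p = 0.0659), wild-type replicate 2 (0.0741) or activated replicate 3 (0.0535).

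Many genes that respond to the receptor fell, and they were not tested against the machinery itself. Of 29 immediate early genes of the NR4A, EGR and AP-1 families 14 fell and 2 rose, with a median of -0.16. The NR4A nuclear receptors, whose transcripts follow the strength of receptor signalling, were lower in all 3 cases. Nr4a2 fell by 1.85, Nr4a3 fell by 1.2 and Nr4a1 fell by 0.97. Nr4a1 read 11.23, 11.25 and 11.17 in wild type and 10.16, 10.23 and 10.35 after cross-linking. In the EGR family Egr2 fell by 1.09 and Egr1 by 0.33 while Egr3 was at 0.17 (adjusted p = 0.166 with centring on the whole table), and in the AP-1 family Fosl1 fell by 0.43 and Jun by 0.36 while Fosb rose by 0.26. Feedback inhibitors of the MAP kinase pathway fell in 8 of 17 cases and rose in 1. Spry1 was at -1.10 and Dusp4 at -0.38, and Dusp2 was the gene called higher, at 0.20 (adjusted p = 0.0739 with centring on the whole table). Rgs16 and Rgs1, which switch off G protein signals of chemokine receptors, fell by 1.98 and 0.61.

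In the NF-kB list 4 of 21 fell (19.0%, against 13.7% of all genes) and 2 rose (9.52%, against 10.1%), shares near those of all genes. Tnip3, an inhibitor of the pathway, fell by 0.81 and Nfkb2, the p100 subunit, by 0.39. The inhibitor gene Nfkbia was at -0.13 with an adjusted p of 0.0502, just above the threshold, and was called lower under several alternatives, with an adjusted p of 0.0233 without activated replicate 3 and 0.0106 with centring on the whole table. Tnfaip3 (0.05) did not pass.

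The list of IL-2, STAT5 targets and SOCS feedback held mostly falls. Of 22 genes 17 fell and 5 did not pass, with a median of -0.41. Il2ra read 12.56, 12.65 and 12.60 in wild type and 11.85, 11.91 and 11.77 after cross-linking (-0.76, SE 0.044, adjusted p = 1.38e-06). Il2rb fell by 0.45, the feedback inhibitors Cish and Socs1 by 0.44 and 0.38, and the cyclin Ccnd2 by 0.52. Socs2, which also restrains STAT5, fell by 1.31 at its brightest probe set. In contrast the shared kinase Jak1 (-0.03), Stat5b (0.03) and the survival gene Bcl2 (-0.08) did not pass. Of 31 cytokine receptor chains 8 fell (25.8%, against 13.7% of all genes) and 4 rose (12.9%, against 10.1%). The number that rose was 2 without any one of wild-type replicates 2 and 3 or activated replicates 2 and 3. The largest fall was that of Lifr, the receptor of LIF, at -1.45, beside a fall of 0.57 in Lif itself.

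**Figure D2:**
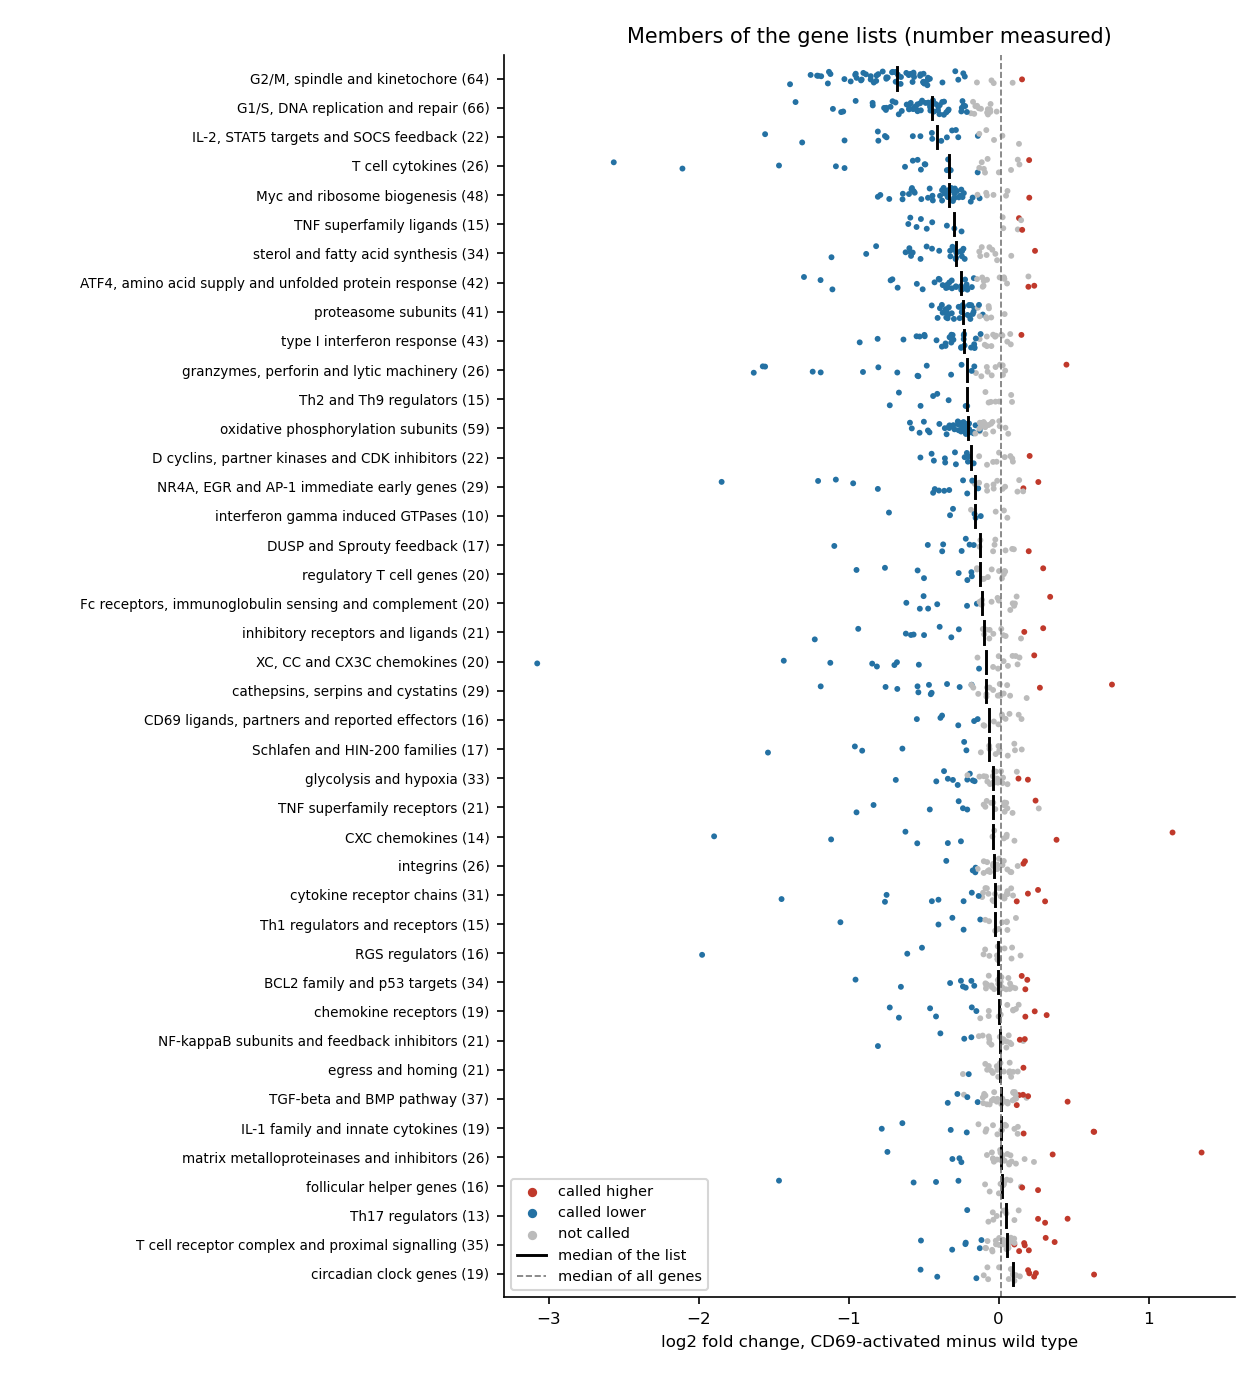
Log2 fold change (CD69-activated minus wild type, x axis) of each measured member of the 42 gene lists, 1 point a gene, with the number measured in brackets. Points are coloured by call, black bars mark list medians and the dashed line the median of all genes (0.02). The cell cycle lists lie furthest to the left, with medians of -0.68 and -0.45.

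Cell division genes fell nearly throughout. Of 64 measured genes of G2/M, the spindle and the kinetochore 59 fell (92.2%, against 13.7% of all genes), 1 rose and 4 did not pass, and the median was -0.68. Of 66 genes of G1/S, DNA replication and repair 52 fell (78.8%) and 14 did not pass, with a median of -0.45. Nusap1, a spindle protein, read 9.88, 9.93 and 9.83 in wild type and 8.53, 8.42 and 8.52 after cross-linking (-1.39, SE 0.063, adjusted p = 2.5e-07). Mki67, the proliferation marker Ki-67, read 10.37, 10.51 and 10.51 against 9.66, 9.63 and 9.65 (-0.82). Rrm2, the regulated subunit of ribonucleotide reductase, read 9.97, 10.10 and 9.97 against 8.76, 8.55 and 8.67 (-1.35, SE 0.06, adjusted p = 1.94e-07). In these genes every activated array lay below every wild-type array.

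The exception among G2/M genes was Pttg1, which encodes securin, the inhibitor of separase. It rose from 9.50, 9.55 and 9.47 to 9.67, 9.69 and 9.63 (0.16, SE 0.038, adjusted p = 0.0124), a call lost with centring on the whole table (adjusted p = 0.202). The condensin gene Smc4 was at 0.09 (adjusted p = 0.142), whereas its partners Smc2, Ncapg and Ncaph fell by 0.56, 0.95 and 0.89. Higher up, Foxm1, the factor that drives many G2/M genes, fell by 0.57, and the S phase factors E2f1 and E2f8 by 0.54 and 1.04. D cyclins, their kinases and the CDK inhibitors fell in 12 of 22 cases, with Cdk6 at -0.29 and Cdk4 at -0.23, and the inhibitor Cdkn1b (p27) was at 0.09 and did not pass. Rb1, the gatekeeper of G1/S, rose by 0.21, a call lost without wild-type replicate 1 (adjusted p = 0.0632), without activated replicate 2 (0.0538) and with centring on the whole table (0.0834).

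Both cell cycle lists are known for sequence elements close to the gene start, and RefSeq promoter windows (GRCm38.p6, 250 bases before to 50 after the start, 300 in all) were searched on both strands. In G2/M genes this is the CHR element TTTGAA, often with CCAAT boxes upstream. TTTGAA stood in 67.2% of the 58 windows of the G2/M list, in 13.8% of the 65 windows of the G1/S list and in 14.8% of the 19116 windows of all tested genes. CCAAT stood in 77.6%, 60.0% and 37.4% of the same windows. The E2F sites TTTGGCGC, TTTCCCGC or TTTCGCGC stood in 33.8% of G1/S windows, 8.62% of G2/M windows and 2.58% of all. Matches to different motifs were counted separately and can overlap in part. Among the 245 windows of genes that fell by at least 1.5-fold 29.4% held TTTGAA, and among the 1911 windows of genes called higher 12.3%. Those 2 sets differ in the fold required. Among the windows of all genes called lower, whatever the size of the fall, the share with TTTGAA was close to that of all tested genes. The lists were made from known cell cycle genes, so the shares of the lists describe the promoters of the members and are no test of a factor.

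The 100 bases before the start are shown for 3 G2/M and 3 G1/S genes. They were picked by size of fall among members called lower that hold the element in these bases. That each holds one near its start was thus fixed by the choice. The capitals mark TTTGAA, or its reverse complement, in the first 3 and an E2F site in the last 3, and each is given 5′ to 3′ on the strand of the gene.
Kif11: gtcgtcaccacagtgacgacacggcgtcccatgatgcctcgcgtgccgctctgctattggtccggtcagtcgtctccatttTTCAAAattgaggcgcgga
Top2a: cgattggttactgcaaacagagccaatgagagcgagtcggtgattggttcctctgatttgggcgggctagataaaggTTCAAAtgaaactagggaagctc
Cdk1: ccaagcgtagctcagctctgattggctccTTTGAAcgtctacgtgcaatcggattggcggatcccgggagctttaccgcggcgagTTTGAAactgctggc
Hells: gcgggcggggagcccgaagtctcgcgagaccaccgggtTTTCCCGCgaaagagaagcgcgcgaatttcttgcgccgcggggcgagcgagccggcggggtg
Rfc3: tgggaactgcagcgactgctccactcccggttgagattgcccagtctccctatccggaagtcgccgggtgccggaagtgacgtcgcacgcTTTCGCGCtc
Mcm6: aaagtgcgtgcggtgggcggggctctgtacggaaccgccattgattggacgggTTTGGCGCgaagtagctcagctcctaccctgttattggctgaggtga

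These windows lie at chr19:37376282-37376381 on the plus strand (Kif11, a mitotic kinesin), chr11:99024190-99024289 on the minus strand (Top2a, the topoisomerase of dividing cells), chr10:69352913-69353012 on the minus strand (Cdk1, the mitotic kinase), chr19:38930890-38930989 on the plus strand (Hells, a chromatin remodeller), chr5:151651209-151651308 on the minus strand (Rfc3, a clamp loader subunit) and chr1:128359706-128359805 on the minus strand (Mcm6, a subunit of the replicative helicase). In Cdk1 the element stands at 2 places. Kif11 read 9.77, 9.78 and 9.71 in wild type and 8.47, 8.56 and 8.45 after cross-linking (-1.25), and Top2a 10.25, 10.27 and 10.18 against 8.99, 9.10 and 8.98 (-1.21). Cdk1 went from 9.53, 9.58 and 9.42 to 8.47, 8.36 and 8.62 (-1.03). The 3 genes picked for E2F sites fell less, Hells by 0.59, Rfc3 by 0.47 and Mcm6 by 0.43, and in each of the 6 genes the groups did not overlap.

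**Figure D3:**
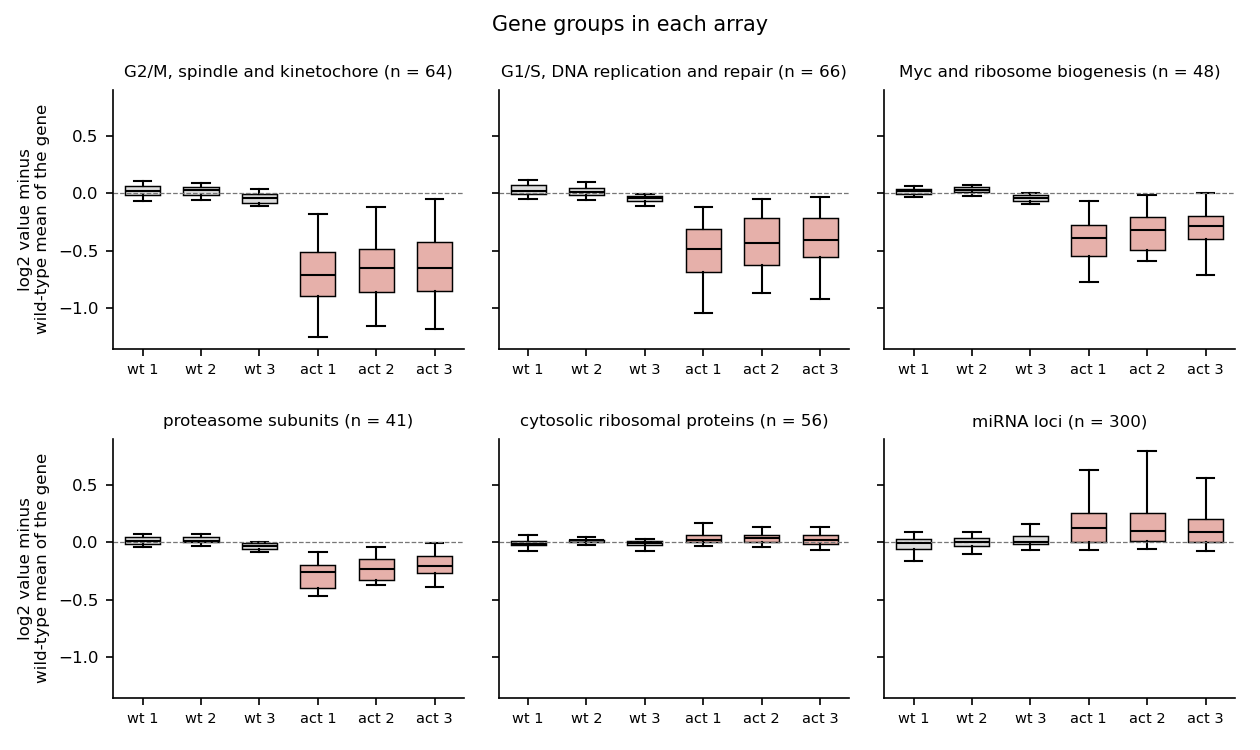
Log2 value of each gene minus its wild-type mean (y axis) in the 3 wild-type (wt) and 3 CD69-activated (act) arrays, for 6 gene groups. Boxes span the quartiles with the median as a line, and whiskers reach the 5th and 95th percentiles of genes. The cell cycle, ribosome biogenesis and proteasome groups lie below 0 in each activated array, the ribosomal protein genes lie close to 0 and the miRNA loci above it.

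Genes of cell growth fell by smaller amounts. Myc, which drives ribosome production and metabolism in stimulated T cells, read 11.64, 11.63 and 11.56 in wild type and 10.83, 10.79 and 10.81 after cross-linking (-0.81, SE 0.034, adjusted p = 1.64e-07). Of 48 genes of Myc and ribosome biogenesis 41 fell (85.4%) and 1 rose, with a median of -0.33. Nop58, of the small nucleolar ribonucleoprotein, fell by 0.79 and Srm, which makes spermidine, by 0.73. The gene called higher was Mxd4, an antagonist of Myc, at 0.20, which was lost with centring on the whole table (adjusted p = 0.121). Of the 56 genes of the cytosolic ribosomal proteins themselves 2 were called higher, with a median of 0.03. None was called lower by limma, with 1 lower at an unadjusted p under 0.05, whereas 4 were lower and the median was -0.06 with centring on the whole table.

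Genes of lipid and amino acid supply fell in most cases too. Of 34 genes of sterol and fatty acid synthesis 24 fell and 1 rose (median -0.29). Idi1, an enzyme of isoprenoid synthesis, fell by 1.11, Cyp51, the lanosterol demethylase, by 0.88 and Sqle, squalene epoxidase, by 0.82, while Srebf2, the factor that drives these genes, was at -0.02 (adjusted p = 0.718). Acss2, which makes acetyl-CoA from acetate, rose by 0.24. Of 42 genes of the ATF4, amino acid and unfolded protein response list 29 fell and 2 rose (median -0.25). Cth, of cysteine synthesis, fell by 1.30, Asns, which makes asparagine, by 1.19 and the arginine transporter Slc7a3 by 1.11, while Atf4 itself was at -0.17, a call lost without wild-type replicate 2 (adjusted p = 0.0584). The 2 called higher were the stress genes Ddit4 (REDD1), at 0.24, and Ddit3 (CHOP), at 0.20, both lost with centring on the whole table (adjusted p = 0.0737 and 0.091). The amino acid response element TGATGNAA stood in 22.5% of the 40 promoter windows of this list and in 3.08% of all windows.

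Energy and protein turnover lists moved by less still but in many members. Of 59 subunits of oxidative phosphorylation 41 fell (69.5%) and 18 did not pass, with a median of -0.20, and Ndufb6, of complex I, fell by 0.59. Of 41 proteasome genes and their partners 33 fell (80.5%), with a median of -0.24. Psmd7, of the regulatory particle, fell by 0.45, whereas Psmb9 (-0.05) and Psmb10 (-0.06), catalytic subunits of the immunoproteasome, and the peptide transporter Tap1 (0.04) did not pass. Psmb9 and Psmb10 were called lower with centring on the whole table (adjusted p = 0.0432 and 0.0231). Glycolysis was divided. Hk2, the inducible hexokinase, fell from 8.63, 8.66 and 8.63 to 7.84, 7.98 and 8.04 (-0.69), but 10 of 33 genes of the list fell and 2 rose, and the glucose transporter Slc2a1 was at 0.02 (adjusted p = 0.85).

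Interferon-responsive genes fell beside Ifng. Of 43 type I interferon response genes 29 fell and 1 rose (median -0.23), and of 10 interferon gamma induced GTPases 6 fell (median -0.16). Ifitm3, which blocks virus entry, read 10.29, 10.31 and 10.34 in wild type and 9.29, 9.40 and 9.47 after cross-linking (-0.93). The antiviral sensor Oas2 fell by 0.63 and the GTPase Gbp2b by 0.73. Several members missed the threshold, among them Irf9, a subunit of the type I interferon signal, at 0.03, and Rsad2 (viperin), at 0.08. The interferon-stimulated response element, searched as 2 copies of GAAA with 2 bases between them, stood in 41.7% of the 36 promoter windows of the type I list and in 3.27% of all windows. In the Schlafen and HIN-200 families 6 of 17 fell, led by Ifi205 at -1.54 and Slfn5 at -0.96.

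Several genes of innate cells, taken from different lists and chosen here after their values were seen, were among the larger rises. Mmp8, the neutrophil collagenase, went from 6.98, 7.0 and 6.98 to 8.33, 8.38 and 8.30 (1.35, SE 0.087, adjusted p = 2.7e-06). Il1a and Il1b, which encode the IL-1 cytokines, read 7.90 and 7.95 in each wild-type array, and rose to 8.44, 8.65 and 8.52 and to 8.53, 8.70 and 8.51 (0.64 and 0.63). The antagonist gene Il1rn was at -0.01 (adjusted p = 0.928). Ctsk, a collagen-cleaving cathepsin, rose by 0.76 and Lcn2, an iron-sequestering protein of neutrophils, by 0.71. Their lists did not rise as wholes. Of 19 genes of the IL-1 family and innate cytokines 3 rose (15.8%, against 10.1% of all genes) and 4 fell (21.1%, against 13.7%), with Il23a at -0.78, Il15 at -0.64 and Il6 at -0.32. Of 26 matrix metalloproteinases and inhibitors 2 rose (7.69%) and 4 fell (15.4%), shares near those of all genes, with Timp3 at -0.74.

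Markers of myeloid cells moved in both directions beside these genes. Among 25 genes that mark monocytes, macrophages or dendritic cells 6 rose and 6 fell (24.0% each, against 10.1% and 13.7% of all genes). Their median was -0.04. The median level of the list lay between 7.27 and 7.31 in wild type and between 7.40 and 7.48 in activated arrays. Adgre1 (F4/80), a macrophage marker, rose from 9.84, 9.83 and 9.89 to 10.69, 10.70 and 10.71 (0.85, SE 0.045, adjusted p = 7.4e-07), and Cd14, the endotoxin coreceptor, rose by 0.46. Flt3, a receptor of dendritic cell precursors, fell by 0.78 and the complement gene C1qb by 0.53. Of 20 neutrophil and mast cell markers 2 rose, Mmp8 and Lcn2, and 6 fell, among them the mast cell protease Cpa3 at -1.02, whereas the neutrophil genes S100a9 (0.02), Ly6g (-0.11) and Elane (-0.10) did not pass. The part of these cells in the rises was not tested. B cell markers split evenly, with 4 of 17 higher and 4 lower (23.5% each, against 10.1% and 13.7% of all genes) and a median of -0.04. The kinase Blk rose from 11.13, 11.11 and 11.11 to 11.63, 11.68 and 11.68 (0.55), and Fcer2a, the low-affinity IgE receptor, fell by 0.41. Of 9 plasma cell markers 5 fell, with the immunoglobulin joining chain Jchain at -0.62. Car1, a carbonic anhydrase of red cells, fell by 1.88, whereas Alas2, of haem synthesis in red cells, rose by 0.33.

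Clock genes had a larger share of rises than the other pathway lists. Of 19 measured 5 rose and 3 fell, 26.3% higher against 10.1% of all genes, with a median of 0.09. When arrays were centred on the whole table, 2 rose and 6 fell. Bhlhe41, a repressor of the clock, went from 8.61, 8.60 and 8.72 to 9.11, 9.40 and 9.33 (0.64, SE 0.071, adjusted p = 0.000112), and its paralog Bhlhe40 fell by 0.41. Nfil3 fell by 0.52, whereas Dbp, which binds the same sites with opposite effect, was at 0.20, a call lost without wild-type replicate 2 (adjusted p = 0.0532), and Per3 rose by 0.24. Nr1d2, Tef and Dbp, at 0.25, 0.20 and 0.20, lost their calls with centring on the whole table (adjusted p 0.0624, 0.0831 and 0.15), while the core genes Arntl (0.00), Clock (0.09) and Per2 (-0.07) did not pass.

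Most of the largest rises shared a position inside another gene. Of the 12 largest, 4 were miRNA loci, and 11, Mmp8 among them, lay within the span of a longer protein-coding or long noncoding gene in the RefSeq gene table. Cxcl2 did not. Among all genes placed 4.63% were so nested, among the 56 that rose by at least 1.5-fold 44.6%, and among the 260 that fell by that much 4.62%. The pattern was looked for after seeing the values, and the table gives no strand. Phxr4, a noncoding RNA inside Maml2, read 7.52, 7.72 and 8.49 in wild type and 9.84, 10.08 and 9.83 after cross-linking (2.01, SE 0.21, adjusted p = 7.4e-05). Gpr52, an orphan receptor gene inside Rabgap1l, went from 7.98, 7.99 and 8.16 to 9.60, 9.88 and 9.74 (1.70), and Gpr21, inside Rabgap1, from 6.21, 5.99 and 6.51 to 7.17, 7.80 and 7.58 (1.28). In each of these wild-type replicate 3 held the highest wild-type value.

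The host genes themselves moved little. For 9 of the largest nested rises a protein-coding host was measured, and the hosts' own log2 fold changes lay between -0.02 and 0.24, while the nested genes rose by 1.04 to 2.01. Some hosts were themselves called higher. Rabgap1l was at 0.24 (adjusted p = 0.00333). Maml2, Rabgap1 and Rb1 were at 0.17, 0.11 and 0.21, calls lost with centring on the whole table (adjusted p = 0.258, 0.685 and 0.0834). The Rabgap1 call was also lost when any one array other than activated replicate 3 was left out (adjusted p 0.0524 to 0.111). That of Maml2 was lost without wild-type replicate 2 or 3 or activated replicate 3 (0.0783 to 0.0969), and that of Rb1 without single arrays as given above. Other hosts did not pass. Dock2, a regulator of lymphocyte migration that hosts Insyn2b, was at 0.00 (adjusted p = 0.937) while Insyn2b rose by 1.12. R3hdm1, host of Mir128-1, was at 0.02 (adjusted p = 0.805). The share of nested genes called higher went with the level of the host, ranked into 3 equal groups: 10.5% of 152 with a dim host, 17.6% of 193 with a host of middle level and 28.8% of 226 with a bright host. For nested miRNA loci the shares were 21.4% of 28, 30% of 50 and 53.6% of 56. The part of host transcript in these rises was not tested. Malat1 and Lncpint, long noncoding RNAs retained in the nucleus and named after their values were seen, rose by 0.55 and 0.98. Intron-containing and mature RNA are not distinguished by these arrays.

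**Figure D4:**
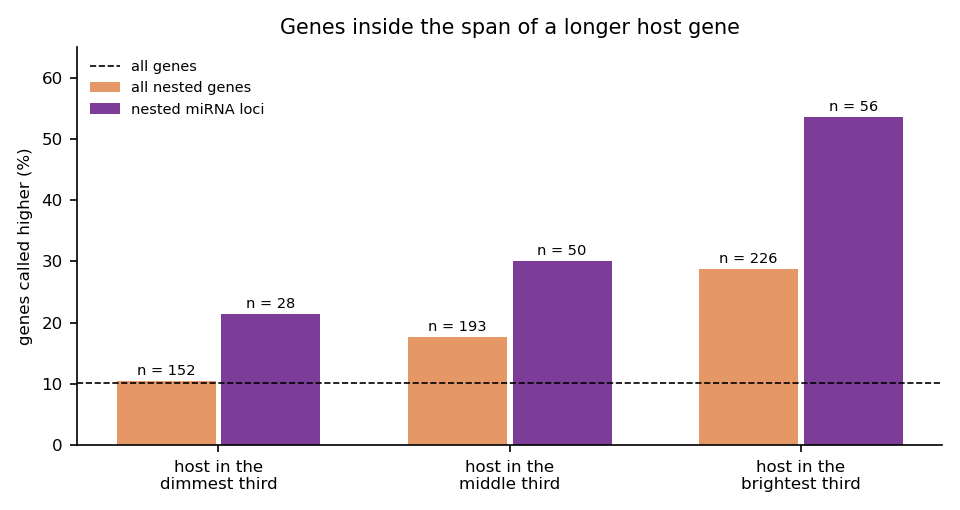
Percentage of genes called higher after CD69 cross-linking (y axis) among genes inside the span of a longer host gene, by the level of the host over all 9 arrays. Bars show all nested genes and nested miRNA loci, with the number of genes above each, and the dashed line is the share among all genes (10.1%). Both shares are highest in the group with bright hosts.

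Calls among miRNA loci ran in 1 direction. Of 300 measured 96 were called higher (32%, against 10.1% of all genes). None was called lower by limma, with 2 lower at an unadjusted p under 0.05. Their median level was 5.81, 5.81 and 5.86 in the wild-type arrays and 6.11, 6.11 and 6.00 in the activated arrays, so the lowest activated array lay above the highest wild-type array. The median log2 fold change of the loci was 0.11, against 0.02 over all genes, and 0.03 with centring on the whole table. When arrays were centred on the whole table, 54 loci were higher and 6 lower, and under the other alternatives that tested all 300 loci 65 to 100 were higher. With the dimmest probe sets left out, 51 of the 100 loci still tested were higher. What such a probe set reads is transcript from the locus, the precursor included, and not the mature strand. Loci outside any longer gene were called higher too, 33 of 113 (29.2%). Over all 9 arrays the median level of the loci was 5.90. In group 2 of 10 equal groups of probe sets by level (5.18 to 5.98), 6.75% were called higher and 0.918% lower. Calls lower were thus rare at such levels among probe sets of any kind.

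Mature strands are shown for the 4 loci with the largest rises and for the miR-15 and miR-16 family, picked after its values were seen because its loci share a seed. Mir342 (0.99) rose more than each of these family loci, and Mir28a (0.89) more than 3 of them. Sequences are from RefSeq (GRCm38.p6), 5′ to 3′, with the seed, bases 2 to 8, in capitals. The last 3 share 1 seed and come from 4 loci, of which 2 encode the same miR-16-5p.
miR-505-3p: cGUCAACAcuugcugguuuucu
miR-687: cUAUCCUGgaaugcagcaauga
miR-128-3p: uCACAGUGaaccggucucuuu
miR-103-3p: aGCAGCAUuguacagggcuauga
miR-15a-5p: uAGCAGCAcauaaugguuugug
miR-15b-5p: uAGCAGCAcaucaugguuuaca
miR-16-5p: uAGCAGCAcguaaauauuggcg

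Mir505 read 9.68, 9.63 and 10.00 in wild type and 11.26, 11.53 and 11.36 after cross-linking (1.61, SE 0.1, adjusted p = 2.34e-06), and miR-505-3p lies at chrX:60394416-60394437. Mir687, inside Rb1, rose by 1.2, Mir128-1 by 1.12 and Mir103-2, inside Pank2, by 1.04. The 4 loci of the miR-15 and miR-16 family, which as mature strands repress cyclins and BCL2, lie as pairs on 2 chromosomes and rose together. Mir15a and Mir16-1 on chromosome 14 rose by 0.78 and 0.83, and Mir15b and Mir16-2 on chromosome 3 by 0.84 and 0.97. The members of a pair are neighbours in 1 transcript, so they are not independent. The second pair lies inside the condensin gene Smc4, which was at 0.09 and did not pass. Mir155 and Mir142, miRNA genes of lymphocytes named after their values were seen, rose by 0.54 and 0.49. Mir155 read 8.89, 9.06 and 9.22 in wild type and 9.62, 9.67 and 9.50 in activated arrays.

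Small nucleolar RNA loci, which also lie in introns, moved in both directions. Of 51 measured 6 were called higher (11.8%, against 10.1% of all genes) and 12 lower (23.5%, against 13.7%), with a median of -0.15. Single arrays moved the count of lower loci, to 24 without activated replicate 1 (median -0.28), to 8 without activated replicate 2 or 3 (median -0.02 without the latter) and to 6 without wild-type replicate 2 or 3. The count of higher loci was 3 without wild-type replicate 1 or 2 or activated replicate 2. Many snoRNAs are made from the introns of genes for ribosomal proteins and ribosome biogenesis. Histone genes were lower in 18 of 43 cases (41.9%, against 13.7% of all genes) and higher in 2 (4.65%, against 10.1%), beside the fall of the replication genes.

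The direction of the calls also changed with level. With the probe sets ranked by mean level into 10 equal groups, 3.81% of the dimmest group were called higher and 0.229% lower, against 15.6% and 28.5% in group 9. Olfactory receptors, sensory genes of the nose, lie at the dim end, with a median level of 5.05 over all arrays, and 94 of 1027 were called higher (9.15%) with a median log2 fold change of 0.06. The part of background signal in rises at such levels was not tested.

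**Figure D5:**
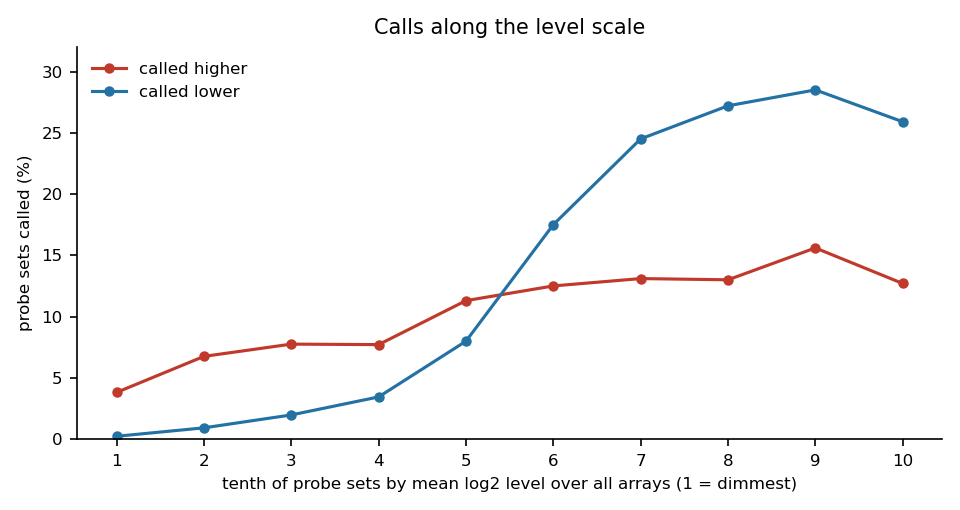
Percentage of probe sets called higher and called lower (y axis) in 10 equal groups by mean log2 level over all 9 arrays, from the dimmest (1) to the brightest (10). Calls higher outnumber calls lower in groups 1 to 5, and calls lower outnumber calls higher in groups 6 to 10.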

How the data were processed

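The 9 arrays were 1-colour Affymetrix mouse gene arrays of total RNA. The deposited log2 values came from RMA (oligo, R 2.12.1), per the submitters' processing notes. The sources used here do not give RMA settings or the annotation version. RMA summarises probes by median polish, which can give arrays equal values and compresses large changes, and there is no detection call.

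limma 3.58.1 (R 4.3.3) was fitted to these values unchanged, with 3 group means over the 9 arrays and eBayes without an intensity trend (residual degrees of freedom 6, prior 4.46). The contrast was CD69-activated minus wild type, two-sided, adjusted by Benjamini-Hochberg over 21789 probe sets with 1 symbol. Probe sets with several symbols (1621) or none (12146) were left out, and 21698 of those tested matched the RefSeq gene table (GRCm38.p6). For the 998 genes with several probe sets the brightest was used. The 42 gene lists and 10 marker lists are described by counts and medians. The members and lists were chosen with earlier results of these data known.

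Genes are named by a rule. It takes Cd69; the 12 strongest called changes each way without overlap between groups, excluding predicted, clone-named and antigen receptor segment genes; at most 6 called genes a list, by size of change; the genes a list or lineage is named for; all of the CD69 list; and the 12 strongest miRNA and snoRNA loci each way. Other members named, called or not, as well as host genes, Malat1, Lncpint, Mir155 and Mir142, were chosen after their values were seen. Promoter windows were found for 15563 genes and mature sequences for 270 miRNA loci.

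Tested on simulated data of 21789 probe sets, the fit called 68% of changes of 1.2-fold, 98% of 1.5-fold changes and 100% of 2-fold changes, and 7 of 21589 unchanged probe sets. Alternatives were 2 kinds of median centring, cyclic loess, dim probe sets left out, all probe sets, other summaries of a gene's probe sets, the 6 arrays alone, a trended robust prior, weighted arrays, a replicate block, a minimum of 1.5-fold and each array left out. Same-numbered arrays did not deviate together (correlations -0.10, -0.01 and -0.26), so numbers were not used as pairs. Python 3.11.15 and matplotlib 3.10.9 drew the figures.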

Additional observations from a re-analysis of the deposited data

How the results depend on the processing

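Of 324 called genes named or eligible by the naming rule, 271 kept their call under each alternative run that tested them, 53 lost it under at least 1, and none of these changed direction. The minimum of 1.5-fold was applied only to the numbers of probe sets and is not among the alternatives counted for these genes. Called genes with smaller changes would not meet it. Of 46 such genes that did not pass, 16 gained a call under at least 1 alternative. The numbers of probe sets called were 5285 in all, 2274 higher and 3011 lower. Centring on the median of the whole table, added after seeing the data, moved the median log2 fold change by -0.08 and gave 6093 calls, 898 higher and 5195 lower. Testing all probe sets of the table gave 7222 calls, 3855 higher and 3367 lower, and a minimum of 1.5-fold left 365, 73 higher and 292 lower. With a replicate block the counts were 4839, 2054 and 2785. Leaving out 1 array gave 3902 to 5067 calls, 1604 to 2211 higher and 2250 to 3018 lower. The cause of these differences was not tested beyond the change in the set of probe sets or the fold required. The other counts lay within 1.5 times those of the deposited scale. Of the 22 lists with a median beyond 0.1 in either direction none changed sign, and of 30 lists with a smaller median 14 did under at least 1 alternative, so their medians have no settled direction. Low levels and 3 arrays a group limit what can be called.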
